A study of Homo sapiens with 6 samples.

Results

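Cyclins and cyclin-dependent kinases (CDKs) were followed in D283, an established line of medulloblastoma cells that shares traits with both Group 3 and Group 4 disease, grown as tumorspheres. Genes were taken by symbol: cyclins (CCN plus a letter), CDK, CDKL and CDKN genes with a number, without the CDK5RAP genes and antisense RNAs. That gave 53 of the 14884 genes named on the array, 14 that drive the cell cycle, 15 that act in transcription, 12 neuronal or atypical members, 6 inhibitors and binding proteins and 6 other cyclins. OTX2 KD tumorspheres received 1 siRNA against the homeobox transcription factor OTX2 (n = 3 arrays), and scramble tumorspheres a non-silencing siRNA (n = 3 arrays). Both groups grew as spheres on low-attachment plates in Neural Proliferation Media with EGF and bFGF, and the study's methods call the arrays biological replicates. With 1 siRNA and 1 cell line, effects of the siRNA on other transcripts cannot be told apart from those of OTX2. Values are log2 RMA expression values, and each gene is represented by its brightest transcript cluster. Errors after a mean are SDs over the 3 arrays of a group, and errors after a log2 fold change are SEs.

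CDKs are kinases, most of which act only when bound to a cyclin. D-type cyclins with CDK4 or CDK6 release the brake that the retinoblastoma protein puts on E2F factors, cyclin E with CDK2 starts DNA replication, cyclin A carries cells through S phase, and cyclin B with CDK1 drives mitosis. Other family members do not time the cell cycle: they phosphorylate RNA polymerase or the Mediator complex, or work in cells that no longer divide, as CDK5 does in neurons. Proliferating progenitors of the cerebellum use the first set, and neurons that leave the cycle shut it down.

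OTX2 RNA was 9.62, 9.57 and 9.57 in OTX2 KD, against 10.56, 10.56 and 10.55 in scramble, so the targeted gene was lower on every OTX2 KD array (log2 fold change -0.97 ± 0.073, SE; limma, adjusted p = 8.7e-05). Array medians lay between 3.67 and 3.71 in OTX2 KD and between 3.60 and 3.61 in scramble, and within a group the arrays had r of 0.990 to 0.993 over clusters. Here and below, a listed gene counts as measured if a cluster carried its symbol in the annotation used. Genes not counted may still be on the array. Of 10 listed medulloblastoma markers 7 were measured, of which 5 fell, OTX2 itself among them. BARHL1 rose (6.06 in OTX2 KD and 5.13 in scramble), and EOMES did not pass (3.06 in OTX2 KD and 3.41 in scramble). The 6 measured markers other than EOMES were above all array medians. NEUROD1 was listed but had no named cluster here, and the paper reports it as upregulated after OTX2 knockdown. Markers of astrocytes, oligodendrocytes, endothelium and mesenchyme (9 genes) averaged between 2.26 and 3.62 per array and list in OTX2 KD and between 2.00 and 3.66 in scramble, and none passed the test. Of these genes only GFAP lay above all array medians, at 4.24 in OTX2 KD and 4.28 in scramble. Of the leukocyte list CD68 was measured, which averaged 6.10 in OTX2 KD and 4.97 in scramble, and its part in the results below was not tested. The 4 neuron markers measured (MAP2, DCX, STMN2 and SYN1) all rose, with a list mean between 9.12 and 9.23 in OTX2 KD and between 6.60 and 6.68 in scramble, and their part in the results was not tested either. The dividing-cell genes MKI67, PCNA and TOP2A all fell, with log2 fold changes from -2.33 to -1.97.

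Over the whole family, 19 of 53 genes fell, 7 rose and 27 did not pass the threshold (limma, Benjamini-Hochberg adjusted p below 0.05 over all 53617 clusters). Across all clusters 27.9% passed, 13.1% downward and 14.8% upward, and across the brightest clusters of all named genes 39.8% passed, 23.2% downward and 16.6% upward. The members thus passed in 49.1% of cases, 35.8% downward and 13.2% upward. At least 2-fold change was seen for 9 members that fell and 1 that rose, where the 2-fold rule called 6.74% of all clusters (3.62% downward and 3.12% upward) and 10.7% of named genes (6.89% downward and 3.82% upward). The values of the groups did not overlap for 38 members (25 lower and 13 higher in OTX2 KD), against 42% of all clusters and 55.5% of named genes. The median log2 fold change of the members was -0.11, beside 0.05 over all clusters and 0.0019 over named genes. RNA was measured in whole cultures, in which fewer cells in a given phase and less RNA per cell cannot be told apart. The balance of calls across all clusters depended on scaling, with 53% of calls upward in the deposited values, 41.2% once arrays were centred on their medians and 49.7% when quantile normalization was repeated. For the members the corresponding counts were 7 higher and 19 lower, 6 and 19, and 8 and 17.

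Of the 19 falls 11 were in the 14 cell cycle members, of which 0 rose. Their median log2 fold change was -1.34, and 8 of the 11 fell at least 2-fold, CCNF only just. Of the 15 transcriptional members 4 rose and 2 fell (median 0.02), and of the 12 neuronal or atypical members 3 rose and 2 fell (median 0.10). The share that passed was 40% of the transcriptional and 41.7% of the neuronal or atypical members, close to the 39.8% of all named genes. It was 78.6% of the cell cycle members. No transcriptional member and 1 neuronal or atypical member changed at least 2-fold. The difference between these subgroups is given by these counts and was not tested as such.

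**Figure D1:**
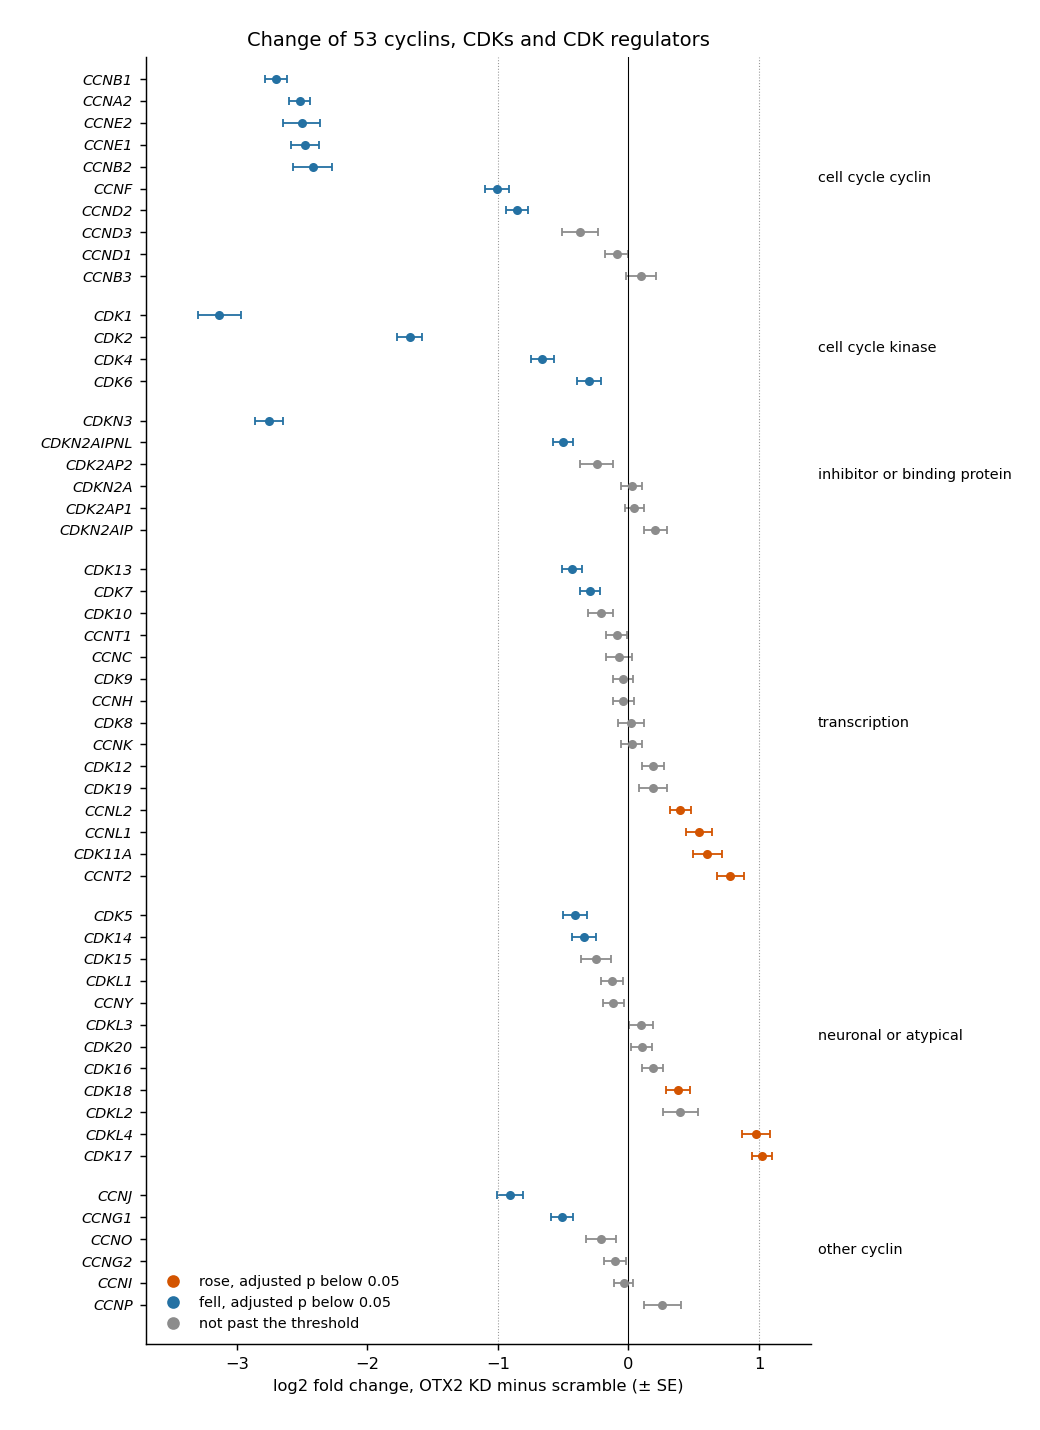
Log2 fold change (OTX2 KD minus scramble, horizontal axis) of the 53 members by subgroup, with bars for the SE and dotted lines at 2-fold. CDK1, CDKN3, CCNA2, CCNB1, CCNB2, CCNE1 and CCNE2 lie between -3.14 and -2.42, whereas the transcriptional members lie between -0.43 and 0.78.

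CDK1 had the largest fall of all members, and the main mitotic cyclins fell with it. CDK1, the kinase that starts mitosis, was at 4.04, 3.67 and 4.35 in OTX2 KD, against 7.10, 7.13 and 7.24 in scramble. The groups did not overlap, scramble arrays varied little, and the OTX2 KD values lay near the array medians, with replicate 2 lowest. Its log2 fold change was -3.14 ± 0.167 (SE, adjusted p = 1.99e-05). CCNB1, the main mitotic partner of CDK1, was at 4.90, 4.71 and 4.75 in OTX2 KD and at 7.49, 7.50 and 7.49 in scramble, 6.51-fold lower. CCNB2, the Golgi-associated B cyclin, was at 4.20, 3.86 and 4.44 in OTX2 KD and at 6.67, 6.57 and 6.51 in scramble, 5.35-fold lower. Both B cyclins were thus low on every OTX2 KD array, with adjusted p-values of 3.9e-06 and 3.66e-05. CCNB3, a B-type cyclin best known from germ cells, did not pass, at 3.97 ± 0.173 in OTX2 KD and 3.87 ± 0.112 in scramble (adjusted p = 0.598). CCNA2, which acts with CDK2 in S phase and with CDK1 before mitosis, was at 6.30, 6.13 and 6.25 in OTX2 KD and at 8.73, 8.78 and 8.73 in scramble, 5.74-fold lower (adjusted p = 4.11e-06). CCNF, which binds no CDK but serves as a substrate receptor of an SCF ubiquitin ligase, fell less, by 1.01 ± 0.091 on the log2 scale (SE, adjusted p = 0.000199). Its fall was under 2-fold without OTX2 KD replicate 2 (-0.99), OTX2 KD replicate 3 (-0.98), scramble replicate 1 (-0.97) or scramble replicate 2 (-0.98), and after a repeated quantile normalization (-0.96), while its call held in each.

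**Figure D2:**
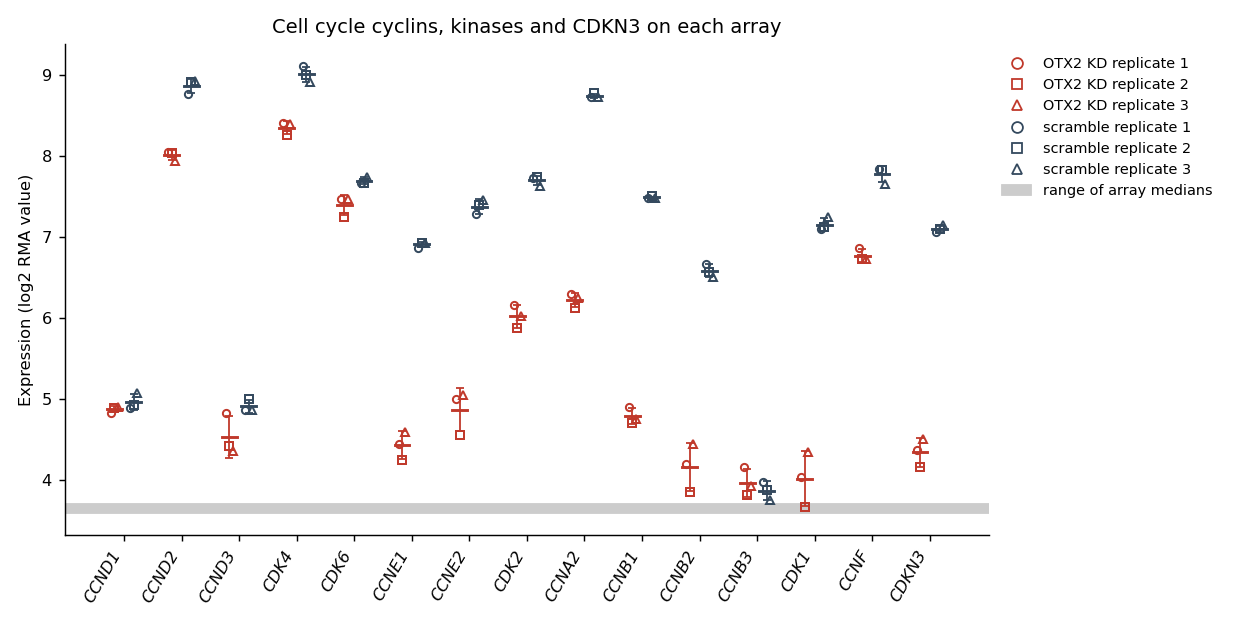
Expression (log2 RMA value, vertical axis) of the 14 cell cycle members and CDKN3 on each array, with the mean and SD of each group (n = 3) and a grey band for the range of array medians. CCNE1, CCNE2, CDK2, CCNA2, CCNB1, CCNB2, CDK1 and CDKN3 are far apart between the groups, whereas CCND1 and CCNB3 overlap.

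Because mitotic genes fell together, the bases before their RefSeq transcription starts are shown (GRCh38.p14, RefSeq). Promoters of this class often carry CCAAT boxes, bound by NF-Y, upstream of a CHR element, bound by the DREAM and MuvB complexes. Capitals mark CCAAT or its reverse complement, and TTTGAA, the common form of the CHR. Other forms of the CHR were not searched, so a stretch without TTTGAA may still hold one. CCNB1 (chr5:69167020-69167149, plus strand), CCNB2 (chr15:59105016-59105145, plus strand) and CCNA2 (chr4:121823884-121824013, minus strand) are given as the 130 bases before the start, and CDK1 as 30 bases around its CHR match at the downstream of its RefSeq starts (chr10:60778445-60778474, plus strand).
CCNB1: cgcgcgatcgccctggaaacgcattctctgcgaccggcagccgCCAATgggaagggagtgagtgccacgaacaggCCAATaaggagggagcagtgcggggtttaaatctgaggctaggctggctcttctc
CCNB2: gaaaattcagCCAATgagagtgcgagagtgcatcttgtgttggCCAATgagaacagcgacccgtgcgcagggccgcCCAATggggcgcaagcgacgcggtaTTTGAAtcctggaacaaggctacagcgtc
CCNA2: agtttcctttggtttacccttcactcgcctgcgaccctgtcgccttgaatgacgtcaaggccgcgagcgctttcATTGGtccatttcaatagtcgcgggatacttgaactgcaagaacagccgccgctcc
CDK1: gggccctttagcgcggtgagTTTGAAactg

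The motifs were searched on both strands in the 250 bases before each start, and a match is a string of letters, not a measured binding site. CCNB1 carried CCAAT at -87 and -55 from the start, and CCNB2 at -244, -120, -87 and -54 with TTTGAA at -29. CDK1 carried the box in reverse at -78 and -46, with TTTGAA at -69 and -13, before its downstream start. These CDK1 matches lie after its upstream RefSeq start, before which it held CCAAT at -150 and TTTGAA at -161. CCNF carried TTTGAA at -85. Of the 6 cell cycle members with a window that fell at least 2-fold, CCNF included, 5 held CCAAT and 3 held TTTGAA, beside 37% and 16.1% of all 27305 genes with a window. A pair of CCAAT boxes on the same strand 31 to 33 bases apart, a spacing noticed in these sequences after they were read, was present in 3 of those 6 genes and in 1.03% of all genes. Since the spacing was taken from these same genes, their count cannot test an enrichment. Of the 15 transcriptional members, 6 held CCAAT, 2 held TTTGAA and 0 held such a CCAAT pair. Of the 6 inhibitors and binding proteins 1 held a pair, CDK2AP2 at -116 and -83, whose RNA did not pass the test. Of the 7 members that rose 4 held CCAAT and 0 TTTGAA. The E2F motif TTTNGCGC was found in CDK1 among the 6, beside 1.84% of all genes, and also in CDK10 and CCNO. The OTX2 motif TAATCC was in none of the 10 cell cycle members with a window, and CDK20 and CCNI were the members that held it, beside 6.9% of all genes. At that share, its absence from 10 genes says little about OTX2 binding. The paper also counted TAATCT and mapped OTX2 by ChIP-seq over a wider region, neither of which was analysed here. Windows were at hand for 49 of the 53 members, and CCND1, CCND2, CCNE2 and CDK2 had none.

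The cyclins and kinase of the entry into S phase fell as well. CCNE1, the activating cyclin of CDK2, was at 4.44, 4.25 and 4.60 in OTX2 KD and at 6.87, 6.93 and 6.93 in scramble, and its relative CCNE2 was at 5.01, 4.56 and 5.05 in OTX2 KD and at 7.28, 7.40 and 7.46 in scramble. The E cyclins were therefore lower by similar amounts, 5.58-fold for CCNE1 (adjusted p = 8.36e-06) and 5.68-fold for CCNE2 (adjusted p = 2.52e-05). CDK2 was at 6.17, 5.88 and 6.03 in OTX2 KD and at 7.73, 7.74 and 7.64 in scramble, 3.20-fold lower (adjusted p = 2.91e-05). CDK2 thus had a smaller log2 fold change (-1.68 ± 0.098, SE) than either of its E cyclins or than CCNA2, a difference between genes that was not tested.

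The D-type branch, which links growth signals to the cycle, changed less. CCND2 was at 8.06, 8.04 and 7.95 in OTX2 KD and at 8.77, 8.91 and 8.93 in scramble, 1.81-fold lower (adjusted p = 0.000319). It was the 1 member with a second named cluster, and that dimmer cluster had a log2 fold change of -0.78, beside -0.85 at the brighter one. CCND1 averaged 4.88 ± 0.038 in OTX2 KD and 4.97 ± 0.097 in scramble, and its groups overlapped (adjusted p = 0.489). CCND3 averaged 4.54 ± 0.259 in OTX2 KD and 4.91 ± 0.079 in scramble and did not pass (adjusted p = 0.087), although the adjusted p was 0.0114 without OTX2 KD replicate 1, its highest OTX2 KD array. With all 6 arrays it was 0.0474 when only clusters at or above the median level were tested, and 0.0427 when only clusters with 1 symbol were. Of the partner kinases, CDK4 was at 8.41, 8.26 and 8.39 in OTX2 KD and at 9.11, 9.004 and 8.92 in scramble, 1.58-fold lower (adjusted p = 0.00143). CDK6 averaged 7.40 ± 0.126 in OTX2 KD and 7.70 ± 0.042 in scramble, a log2 fold change of -0.30 that passed narrowly (adjusted p = 0.049). That call was lost when any single array of the 6 was left out, with adjusted p-values from 0.0686 to 0.132, and after a repeated quantile normalization (adjusted p = 0.0829).

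Among the 11 cell cycle members that fell, replicate 2 of OTX2 KD had the lowest value of its group for 9 and replicate 3 for the other 2. Replicate 2 lay on average 0.16 log2 units below the mean of the OTX2 KD arrays for these genes. The same array was the lowest of its group for 56.3% of all named genes that fell and for 34.4% of all clusters, and its OTX2 value, 9.57, was the same as that of replicate 3 to the second decimal. Whether the values of replicate 2 relate to the OTX2 level was not tested. Without replicate 2 the median log2 fold change of the 11 genes was -2.27, beside -2.38 to -2.53 when another array was left out.

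The inhibitors and binding proteins did not move as a group, with 2 of 6 lower, 0 higher and a median of -0.11. Among all named genes 23.2% fell and 16.6% rose. CDKN3, a phosphatase that dephosphorylates CDKs and is itself made most in dividing cells, was at 4.37, 4.16 and 4.51 in OTX2 KD and at 7.06, 7.10 and 7.15 in scramble. All OTX2 KD arrays were far below all scramble arrays, and it was 6.75-fold lower (adjusted p = 6.57e-06). CDKN2AIPNL, which shares a domain with the ARF-binding protein CDKN2AIP, fell by 0.50 ± 0.077 on the log2 scale (SE, adjusted p = 0.00248), and CDKN2AIP had a fitted log2 difference of 0.20 (adjusted p = 0.13). The CDK2-associated proteins CDK2AP1 (0.04) and CDK2AP2 (-0.24) did not pass. CDKN2A, the locus of an INK4 inhibitor of CDK4 and CDK6 and of the p53 activator ARF, was below the median of every array, at 3.28 ± 0.038 in OTX2 KD and 3.26 ± 0.082 in scramble (adjusted p = 0.865). The CIP/KIP inhibitors and the other INK4 genes were not analysed here.

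Transcriptional members are described by complex. CDK9 and its T-type cyclins form P-TEFb, which releases paused RNA polymerase. CCNT2 was at 7.19, 7.18 and 7.16 in OTX2 KD and at 6.19, 6.54 and 6.46 in scramble, so the groups were well apart, with most of the spread in scramble. It rose 1.72-fold (log2 fold change 0.78 ± 0.107, SE; adjusted p = 0.00141). CCNT1, its alternative, did not pass (-0.09, adjusted p = 0.472), nor did CDK9, which both share (-0.04, adjusted p = 0.726). Of the T-type cyclins the test therefore called CCNT2, and the difference between them was not tested.

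CDK11 kinases act with L-type cyclins in splicing. CDK11A was at 5.20, 5.11 and 5.12 in OTX2 KD and at 4.37, 4.74 and 4.50 in scramble, 1.52-fold higher (adjusted p = 0.00553). Its near-identical neighbour CDK11B was not analysed here, and probes may not separate the pair, so this value is uncertain. CCNL1 was at 7.36, 7.29 and 7.40 in OTX2 KD and at 6.65, 6.82 and 6.95 in scramble, and CCNL2 at 7.36, 7.30 and 7.22 in OTX2 KD and at 6.87, 6.88 and 6.95 in scramble. Neither cyclin's groups overlapped, and they rose 1.46-fold and 1.32-fold (adjusted p = 0.00557 and 0.00921). In this splicing set CCNL1 and CCNL2 therefore rose, and CDK11A did with the uncertainty given above, where 16.6% of all named genes rose.

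For CCNT2 and CDK17, the members of their subgroups with the largest rise, the 130 bases before the RefSeq start are shown for contrast with the mitotic cyclins (GRCh38.p14; CCNT2, chr2:134918692-134918821, plus strand; CDK17, chr12:96400440-96400569, minus strand). Neither stretch holds CCAAT or TTTGAA on either strand, so no letters are in capitals, although CCNT2 held CCAAT further upstream, at -220. Other members that rose held CCAAT within this span, CCNL2 at -107 and -66 and CDKL4 at -112 and, in reverse, -72.
CCNT2: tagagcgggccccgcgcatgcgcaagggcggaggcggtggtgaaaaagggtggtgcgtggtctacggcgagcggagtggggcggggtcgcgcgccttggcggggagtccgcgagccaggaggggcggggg
CDK17: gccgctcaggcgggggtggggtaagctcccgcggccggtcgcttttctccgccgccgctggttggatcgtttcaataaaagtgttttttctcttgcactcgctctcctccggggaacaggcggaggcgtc

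The kinases of transcript elongation, CDK12 and CDK13, share CCNK as their cyclin. CDK13 was at 7.50, 7.55 and 7.57 in OTX2 KD and at 8.04, 7.94 and 7.94 in scramble and fell 1.35-fold (adjusted p = 0.00532). CDK12 (0.19, adjusted p = 0.153) and CCNK (0.02, adjusted p = 0.86) did not pass. CDK7, the kinase of TFIIH that also activates the cell cycle CDKs, averaged 5.83 ± 0.049 in OTX2 KD and 6.12 ± 0.039 in scramble, a log2 fold change of -0.30 (adjusted p = 0.026). Its call was lost when any array other than OTX2 KD replicate 3 was left out, with adjusted p-values from 0.0553 to 0.081, and after a repeated quantile normalization (adjusted p = 0.0588). Its cyclin CCNH did not pass (-0.04, adjusted p = 0.768). The Mediator kinases CDK8 (0.02) and CDK19 (0.19) and their cyclin CCNC (-0.07) did not pass either, with adjusted p-values of 0.926, 0.269 and 0.666. CDK10 had a fitted log2 difference of -0.21 (adjusted p = 0.148).

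**Figure D3:**
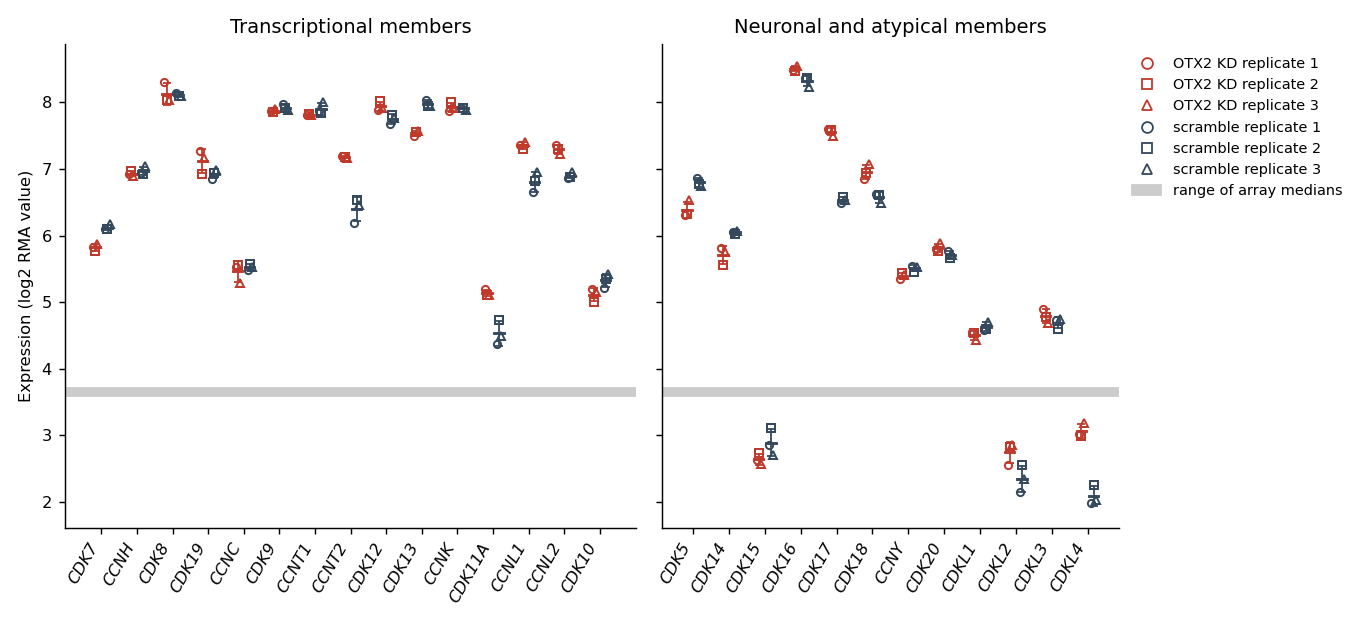
Expression (log2 RMA value, vertical axis) of the 15 transcriptional and 12 neuronal or atypical members on each array, with the mean and SD of each group (n = 3) and a grey band for the range of array medians. CCNT2, CDK11A, CCNL1, CCNL2 and CDK17 are higher on every OTX2 KD array, and CDK15, CDKL2 and CDKL4 lie below the array medians.

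Among neuronal and atypical members, CDK17 rose most. CDK17, a PCTAIRE kinase abundant in brain, was at 7.59, 7.59 and 7.50 in OTX2 KD and at 6.49, 6.58 and 6.54 in scramble. The groups were about 1 log2 unit apart with little spread, and the rise was 2.03-fold (log2 fold change 1.02 ± 0.079, SE; adjusted p = 9.29e-05). It was the only member that rose at least 2-fold, and that count of 1 was 0 without scramble replicate 1 and after median centring, and 2 without OTX2 KD replicate 1, OTX2 KD replicate 2 or scramble replicate 2. Of the other PCTAIRE kinases, CDK18 averaged 6.95 ± 0.110 in OTX2 KD and 6.57 ± 0.078 in scramble and rose 1.30-fold (adjusted p = 0.0197). The CDK18 call was lost after median centring (adjusted p = 0.0505) and without OTX2 KD replicate 2, OTX2 KD replicate 3 or scramble replicate 3 (adjusted p = 0.0505, 0.0617 and 0.0669). CDK16, which needs CCNY for activity, did not pass (0.18, adjusted p = 0.146, or 0.0387 with a trended, robust variance), nor did CCNY (-0.11, adjusted p = 0.333).

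CDK5, the CDK of postmitotic neurons, was lower rather than higher, at 6.31, 6.32 and 6.53 in OTX2 KD and at 6.87, 6.78 and 6.75 in scramble. The groups did not overlap, and it was 1.33-fold lower (log2 fold change -0.41 ± 0.093, SE; adjusted p = 0.0147). Without OTX2 KD replicate 1 or OTX2 KD replicate 2 the adjusted p was 0.0517 and 0.0504. Its activators CDK5R1 and CDK5R2 were not analysed here. CDK14, which with CCNY phosphorylates the WNT coreceptor LRP6, averaged 5.71 ± 0.131 in OTX2 KD and 6.05 ± 0.023 in scramble, 1.27-fold lower (adjusted p = 0.0292). The CDK14 call was lost when any array other than OTX2 KD replicate 1 was left out (adjusted p from 0.0566 to 0.0812).

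The CDKL kinases are relatives of the CDKs, and CDKL2, CDKL4 and CDK15 were dim. CDKL4 was at 3.02, 3.00 and 3.19 in OTX2 KD and at 1.99, 2.26 and 2.03 in scramble, and rose 1.97-fold (adjusted p = 0.000485). All of its values lay below the array medians, and detection values were not used, so the size of this rise is uncertain. CDKL2, also below the medians, did not pass in all arrays (0.40, adjusted p = 0.0642), but its adjusted p was 0.0461 without OTX2 KD replicate 1, 0.0408 without scramble replicate 2 and 0.0291 when only clusters with 1 symbol were tested. CDKL1 (-0.13), CDKL3 (0.10), CDK15 (-0.25) and the ciliary kinase CDK20 (0.10) did not pass, with adjusted p-values from 0.172 to 0.494.

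Of the other cyclins, 2 of 6 fell and 0 rose, beside 23.2% and 16.6% of all named genes. CCNJ was at 6.49, 6.38 and 6.68 in OTX2 KD and at 7.44, 7.38 and 7.45 in scramble, 1.87-fold lower (adjusted p = 0.000496). CCNG1, a target of p53, was at 7.66, 7.58 and 7.57 in OTX2 KD and at 8.16, 8.02 and 8.15 in scramble, 1.42-fold lower (adjusted p = 0.00308). Both were lower on every OTX2 KD array. CCNG2, its relative, which is known to be made in cells that stop dividing, had a fitted log2 difference of -0.11 (adjusted p = 0.423). CCNI averaged 10.65 ± 0.024 in OTX2 KD and 10.68 ± 0.028 in scramble, and its groups overlapped (adjusted p = 0.77). CCNO, a cyclin of multiciliated cells, was below all array medians (-0.21, adjusted p = 0.243), and CCNP had a fitted log2 difference of 0.26 (adjusted p = 0.233).

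Genes that act with the CDKs were listed for each branch. Of 32 genes listed as acting with cell cycle CDKs, substrates and downstream factors included, 25 were measured, of which 20 fell and 1 rose (median log2 fold change -1.53). These are 80% and 4%, beside 23.2% and 16.6% of all named genes. CDC25A, the phosphatase that activates CDK2 and CDK1, averaged 4.32 in OTX2 KD and 7.52 in scramble, and MYBL2, a MuvB-bound activator of mitotic genes, averaged 5.97 in OTX2 KD and 8.76 in scramble. They had the largest falls, -3.19 and -2.79. LIN37, a MuvB subunit needed for repression by DREAM, was the 1 that rose, at 7.58 in OTX2 KD and 6.70 in scramble (log2 fold change 0.88 ± 0.109, SE; adjusted p = 0.000844).

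Of 17 listed partners of the transcriptional CDKs, 9 were measured, of which 4 rose and 2 fell (median 0.09). The shares, 44.4% and 22.2%, rest on these 9 genes, where 16.6% of all named genes rose and 23.2% fell. MED13L of the Mediator kinase module (0.93) and HEXIM1, which inhibits P-TEFb (0.80), rose most, whereas MEPCE, the capping enzyme of the RNA that holds HEXIM1 to P-TEFb (-1.10), and the elongation factor ELL (-0.50) fell. The ELL call had an adjusted p of 0.0271. Of the 2 falls, 1 was left when OTX2 KD replicate 1, OTX2 KD replicate 3, scramble replicate 1 or scramble replicate 2 was left out. Of 10 listed substrates and partners of CDK5, 7 were measured, of which 6 rose and 1 fell (median 1.19), or 85.7% and 14.3%. The microtubule proteins DCX (2.39) and MAPT (2.06) rose most, while the adaptor DAB1 (-0.98) fell, on the arrays on which CDK5 itself was lower. DCX and SYN1 of this list are also among the neuron markers above. These are changes in RNA, and kinase activity was not measured on the arrays.

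**Figure D4:**
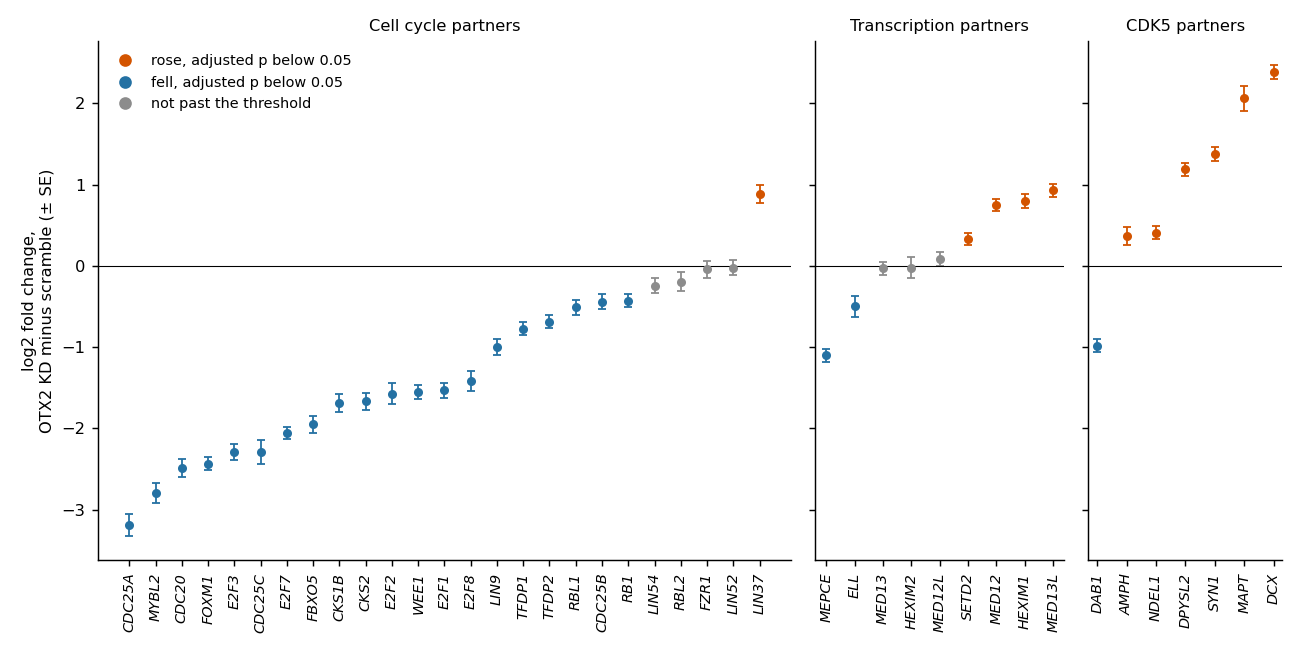
Log2 fold change (OTX2 KD minus scramble, vertical axis, bars for the SE) of the measured genes that act with cell cycle CDKs (25), transcriptional CDKs (9) and CDK5 (7). Cell cycle partners run from -3.19 for CDC25A to 0.88 for LIN37, and CDK5 partners from -0.98 for DAB1 to 2.39 for DCX.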

How the data were processed

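Per the labels and the study's methods, total RNA was hybridized to HuGene 2.0 ST arrays, and the authors made RMA values in Affymetrix Expression Console, deposited as 1 log2 value for each of 53617 transcript clusters on 6 arrays. RMA corrects background, normalizes by quantiles and summarizes probes. Gene symbols came from the platform annotation: 16098 clusters had 1 symbol, 0 had several and 37519 had none, and the brightest cluster stood for a gene. The test of OTX2 KD against scramble was limma's (version 3.58.1, R 4.3.3; residual df 4, prior df 3.17, two-sided), with Benjamini-Hochberg adjustment over all clusters. Changed means adjusted p below 0.05, and the 2-fold limit was a second rule. The number of arrays limits precision, and no detection values were used. The members, lists and tests were chosen with earlier results of these data known. All members could be named, and of each partner list the 2 largest rises and falls, with the other listed MuvB subunits given beside LIN37. Members with the largest changes are given array by array. Sequences are RefSeq windows, matched by gene ID. The fit was tested on simulated data. Alternatives were scaling, filters, variance models, averaged clusters, other thresholds, a replicate block and leaving out each array. Plots used Python 3.11.15 and matplotlib 3.10.9.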

Additional observations from a re-analysis of the deposited data

How the results depend on the processing

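The falls of CDK1, CDK2, CDK4, CDKN3, CCNA2, CCNB1, CCNB2, CCNE1, CCNE2 and CCND2 and the rise of CDK17 kept their direction and call under every alternative for single genes. The same held for the falls of CCNF, CCNG1, CCNJ and CDK13 and the rises of CCNT2, CCNL1, CCNL2 and CDK11A. The replicate numbers did not pair the arrays (correlations of same-numbered deviations -0.056, -0.023 and -0.00072, and 0 arrays closest to their own number). With the replicate block, 16 members fell and 7 rose, 1 neuronal or atypical and 1 transcriptional member fell, the calls of CDK6, CDK7, CDK14 and CDK18 were lost, and CDKL2 gained one (adjusted p = 0.039), so the 7 that rose were not the same genes. Against a 1.5-fold limit, 9 members fell and 1 rose. After median centring, 0 members rose at least 2-fold, and CCNK (-0.064), CDK2AP1 (-0.043), CDK8 (-0.071) and CDKN2A (-0.063) turned sign. After a repeated quantile normalization, 1 inhibitor or binding protein rose (CDKN2AIP), 1 transcriptional member fell, and CCNH (0.00908), CCNI (0.043) and CDKN2A (-0.066) turned sign. Leaving out single arrays, members that rose at least 2-fold numbered 0 to 2, neuronal or atypical members that fell 0 to 1, transcriptional members that fell 1 to 2 and transcriptional partners that fell 1 to 2. The log2 fold change then ranged from -0.12 to 0.019 for CCNC (positive without OTX2 KD replicate 3), from -0.012 to 0.051 for CCNK (negative without OTX2 KD replicate 2), from -0.076 to 0.064 for CDK8 (negative without OTX2 KD replicate 1) and from -0.00901 to 0.070 for CDKN2A (negative without scramble replicate 2). None of the genes that turned sign had passed the test, and the causes were not tested. Precision is limited by 3 arrays a group, and values near or below the array medians have an uncertain fold change.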
